A study of Mus musculus with 4 samples.

Results

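Gene expression after 6 days of CL 316243 was compared with expression after 3 days in mouse epididymal white fat. The comparison used the 6-day array and the 3-day array, which are 2 of the 4 arrays of a time course. The arrays were taken as their labels name them, and the comparison was chosen with earlier results of these data known. The titles of 2 arrays, those of days 1 and 3, write the compound as CL 316234, while the descriptions of all treated arrays write CL 316243, the spelling used here. Each array was hybridized with RNA pooled from male C57 BL6 mice aged 3 to 4 months, and both groups received the drug at 3 nmol/hr. The other arrays, from control mice and from mice given the same dose for 1 day, served to set the floor on low values, and their values are printed as context. How many mice made up a pool, how the drug was given and what the control mice received is not stated in the labels.

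CL 316243 selectively activates the β3-adrenergic receptor, which in mice is found mainly on fat cells. The receptor raises cyclic AMP, and the released fatty acids are known to draw macrophages into white fat and to act on nuclear receptors that control oxidation genes. Under sustained stimulation, white fat is known to pass through an early inflammatory phase and then to gain mitochondria and some features of brown fat. The comparison of day 6 with day 3 asks which transcripts still moved in the second part of the treatment.

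Values are probe set intensities on a linear scale, in the arbitrary units of the deposited table. Values below 174 units, the 40th percentile over the 4 arrays, were raised to that floor, and at least 59.8% of the 12422 probe sets lay above it on each array. With 1 array a group there is no replicate and no test, so "rose" and "fell" are used of ratios of at least 2-fold after the floor, and a fold is written as a lower bound where the dimmer value was below the floor. Differences between the probe sets of 357 genes with 2 of them gave an error of 0.30 on the log2 scale, and 3 such errors correspond to 1.87-fold. This error covers the measurement on these arrays and not the spread between mice or pools. In 27 of those pairs 1 probe set or both passed 2-fold. The pair had the same sign in 22 of the 27, and both passed in 2. Among probe sets whose mean on the 2 arrays was 1 to 2 times the floor, 95% had ratios within 2.1-fold. At 2 to 4 times the floor the limit was 2.16-fold, at 4 to 16 times 1.87-fold and above that 1.74-fold. The 9 spiked bacterial control probe sets were all brighter at day 6, by 1.14-fold to 2.12-fold with a median of 1.33-fold. The ratio of 3′ to 5′ control probe sets was 0.902 at day 3 and 0.971 at day 6 for Gapdh, 1.23 and 1.41 for Actb, and 3.23 and 6.58 for Pcx. Their part in the results below was not tested.

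From day 3 to day 6 more genes fell than rose, and many of those that fell were genes of macrophages and of inflammation. Of 12422 probe sets, 225 (1.81%) were at least 2-fold lower at day 6 and 132 (1.06%) at least 2-fold higher. Of the 5762 genes whose mean over the 4 arrays was above the floor, 165 (2.86%) fell and 93 (1.61%) rose, with a median log2 ratio of 0.01. These 2 shares are the background for the gene lists below. The dimmer value was below the floor in 38 of the 165 falls and 20 of the 93 rises. Of the 165 genes that fell, 42 stood on the list of macrophage and myeloid markers or on that of acute phase and inflammation genes, against 1 of the 93 that rose. The 2 lists hold 25.5% of the falls and 1.61% of all 5762 genes. All lists were chosen with earlier results of these data known, which limits this contrast. On none of the lists stood 90 of the 165 falls (54.5%) and 70 of the 93 rises (75.3%), as did 84.4% of all genes. The largest fall was that of Arg1, the arginase of alternatively activated macrophages, from 2923 units at day 3 to 78 at day 6, which is at least 16.8-fold. The largest rise was that of Lcn5, a lipocalin of the epididymis, from 7 to 8028, at least 46.1-fold.

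**Figure D1:**
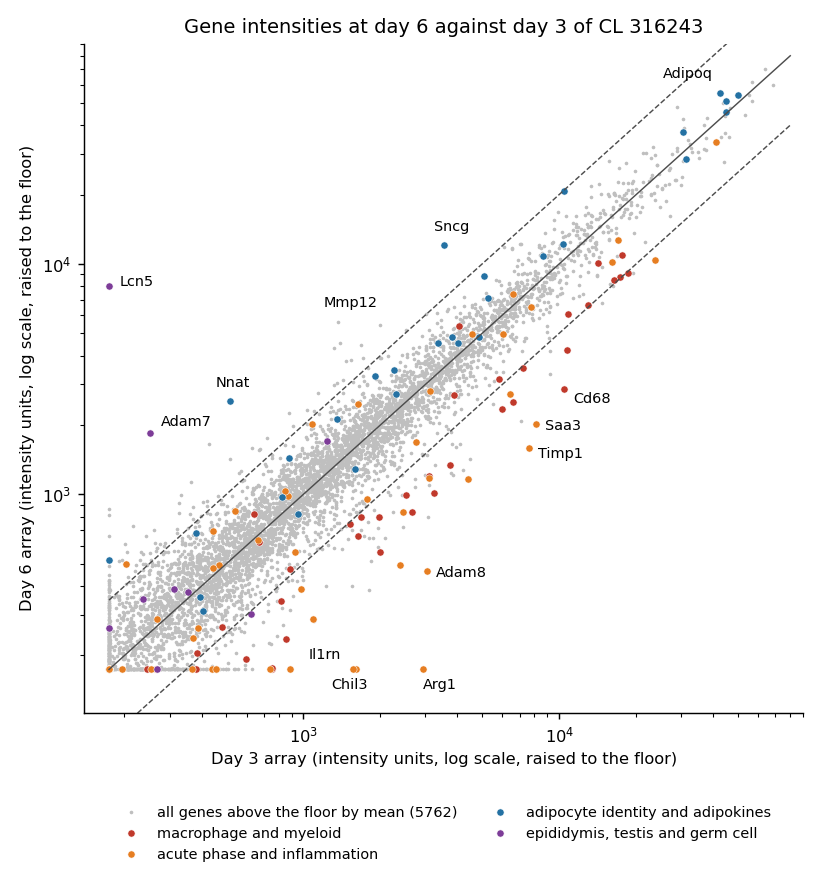
Intensity of each gene at day 6 (vertical, log scale) against day 3 (horizontal, log scale), both in intensity units and raised to the floor of 174; each point is 1 gene, represented by its probe set with the highest mean, the solid line marks equality and the dashed lines 2-fold. Genes of the macrophage and inflammation lists lie mostly below the line of equality, with Arg1, Il1rn and Chil3 at the floor at day 6, while Lcn5, Adam7, Nnat, Sncg and Mmp12 lie above the upper dashed line.

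Macrophage and myeloid markers had the lowest median ratio of any list. All 38 measured members had a mean above the floor; 22 fell and 0 rose, against a background of 2.86% lower, and 35 of the 38 had ratios below 0. Their median log2 ratio was -1.05, where that of all genes was 0.01. Their summed intensity was 83076 units in control, 219386 at day 1, 194243 at day 3 and 99672 at day 6. In RNA of whole tissue, fewer cells of a type and less RNA per cell cannot be told apart.

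Among the surface and scavenging proteins of macrophages, Cd68, a glycoprotein of their endosomes and lysosomes, was at 1912, 8726, 10436 and 2867 units in control and on days 1, 3 and 6, and so was 3.64-fold lower at day 6 than at day 3. The day 3 array was the highest for this gene. Its second probe set lay under the floor on both days. Adgre1, the F4/80 antigen, was at 692, 1322, 3253 and 1013 units and fell 3.21-fold. Itgam, the integrin chain CD11b, was at 186, 2631, 856 and 235 units and fell 3.64-fold. Its highest value was at day 1, unlike those of Cd68 and Adgre1. Mpeg1, a pore-forming protein of macrophages, was at 1660, 14142, 10718 and 4219 units and fell 2.54-fold. Csf1r, the receptor for the growth factor that keeps macrophages alive, went from 7233 to 3532 units, or 2.05-fold lower, while its second probe set went from 92 to 315. The scavenger receptors Stab1 and Msr1 fell 2.48-fold and at least 2.18-fold.

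Several other members of the macrophage and myeloid list were lower at day 6 too. Aif1, a calcium-binding protein of macrophages also called Iba1, was at 239, 364, 751 and 117 units and fell at least 4.32-fold. Ptpn6, a phosphatase that restrains signalling in blood cells, was at 194, 1585, 757 and 177 units and fell 4.28-fold. Lst1, a transcript of leukocytes, went from 1989 to 561 units, 3.55-fold lower. Spi1, which encodes the myeloid transcription factor PU.1, was chosen after its values were seen; it was at 639, 2328, 1683 and 801 units, a log2 ratio of -1.07 at day 6 over day 3. Tyrobp, an adaptor of myeloid receptors, and Lyz2, macrophage lysozyme, were chosen in the same way and did not pass 2-fold. Tyrobp went from 12963 to 6602 units and Lyz2 from 17607 to 10985.

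PU.1 is known to bind sites with the core GAGGAA in myeloid promoters, many of which lack a TATA box. Of the 22 markers that fell, 14 were matched by symbol to a promoter of the RefSeq table for GRCm38.p6. The first entry of each gene was taken. Markers that did not fall were not counted, so whether such sites go with the fall was not tested. The letters GAGGAA, read on both strands, stood within 250 bases before the annotated start in 9 of the 14, and in 23.1% of all 27025 promoters. Within 80 bases of the start they stood in 6 of the 14 and in 7.92% of all. Such a match is a description of the letters and not of binding. The stretches of 4 of them, chosen after their values were seen, are shown for the falling macrophage genes as the 80 bases that end at the base before the start, 5′ to 3′ in the direction of the gene, with GAGGAA or its complement TTCCTC in capitals. They lie at chr7:128062560-128062639 on the plus strand for Itgam, at chr17:35176053-35176132 on the minus strand for Aif1, at chr3:96293970-96294049 on the minus strand for Fcgr1 and at chr4:130913236-130913315 on the plus strand for Laptm5.
Itgam: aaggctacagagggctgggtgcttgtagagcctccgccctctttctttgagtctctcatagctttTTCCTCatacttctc
Aif1: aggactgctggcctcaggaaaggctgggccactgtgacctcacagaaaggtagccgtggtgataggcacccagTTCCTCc
Fcgr1: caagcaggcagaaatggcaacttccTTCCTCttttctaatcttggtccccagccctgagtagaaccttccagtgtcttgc
Laptm5: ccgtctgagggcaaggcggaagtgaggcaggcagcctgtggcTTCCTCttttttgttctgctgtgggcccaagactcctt
In Itgam the match begins 15 bases before the start, and in Aif1 7 bases before it. Fcgr1, the high-affinity receptor for IgG, went from 2669 to 835 units with a log2 ratio of -1.68. Laptm5, a lysosomal membrane protein of blood cells, fell 2.54-fold, from 5974 to 2353 units, and its second probe set went from 4985 to 1853.

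Of the 74 acute phase and inflammation genes on the list, 66 were measured and 55 had a mean above the floor; 20 of these fell and 1 rose. The background was 2.86% lower and 1.61% higher. The median log2 ratio of the 55 was -0.54, and it was -0.16 over all 66 measured members. Of the 55, 35 had ratios below 0 and 12 above 0. Il1b and Il6, named after their values were seen, were at 13120 and 2379 units at day 1 and below the floor on the other arrays. Such genes passed the mean through day 1 alone and entered the counts and the median with a ratio fixed at 0. Il1rn, the natural antagonist of the interleukin-1 receptor, was at 113, 9548, 1607 and 119 units and fell at least 9.24-fold. Chil3, a chitinase-like protein secreted by myeloid cells, was at 121, 6511, 1569 and 49 units and fell at least 9.02-fold. Arg1 had its highest value at day 1, with 128 units in control and 14423 at day 1. For all 3 genes control and day 6 were below the floor, and day 1 was above day 3.

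The chemokines and their receptors that passed 2-fold on this list all fell. Ccl2, which attracts monocytes, was at 785, 11818, 2397 and 495 units and was 4.84-fold lower at day 6 than at day 3. Ccl7, a related attractant, went from 743 to 83 units and fell at least 4.27-fold. Ccr1, a receptor for several of these chemokines, was at 215, 4723, 887 and 156 units and fell at least 5.1-fold. Ccr2, the receptor for Ccl2, was named after its values were seen and went from 2447 to 841 units, a log2 ratio of -1.54. Ccl9 and Ccl6, also named after the values were seen, went from 23656 to 10378 and from 6451 to 2738 units.

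The acute phase genes of the list were split. Saa3, the serum amyloid A of fat and macrophages, was at 889, 19136, 8095 and 2016 units and fell 4.02-fold. Orm2, an orosomucoid named with the next genes after their values were seen, went from 1092 to 289 units, 3.78-fold lower. Its paralogs Orm1 and Orm3 went from 6590 to 7406 and from 442 to 694, and Saa2, another serum amyloid A, from 468 to 494. These paralogs are near copies of each other, so their probe sets may share signal. Timp1, an inhibitor of matrix metalloproteinases, was at 1159, 18832, 7589 and 1597 units and fell 4.75-fold. Its second probe set lay under the floor on both days. Adam8, a metalloprotease of leukocytes, was at 101, 3936, 3044 and 464 units and fell 6.56-fold; unlike Il1rn and Chil3 it was still above the floor at day 6. Lcn2, which sequesters bacterial siderophores, went from 4418 to 1167 units, 3.79-fold lower, while its second probe set went from 368 to 429. The single member that rose was Socs1, an inhibitor of cytokine signalling, from 202 to 497 units, with a log2 ratio of 1.30. It was named after its values were seen.

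Of 12 granulocyte and mast cell markers above the floor, 3 fell (S100a8, S100a9 and Lcn2) and 0 rose, and the median was -0.02. S100a8 and S100a9, the paired calcium-binding proteins of neutrophils, were at 40341 and 26751 units at day 1. S100a8 went from 1494 at day 3 to 643 at day 6, 2.32-fold lower, and S100a9 from 540 to 13, at least 3.1-fold lower. Other neutrophil genes, named after their values were seen, were mixed. Camp, an antimicrobial peptide, was at 460, 242, 546 and 594 units, and the elastase Elane at 593, 292, 376 and 593. Csf3r went from 1580 units at day 3 to 1172 at day 6. Cxcr2 and Mmp9 were at 1495 and 4442 units at day 1 and below the floor on days 3 and 6. They therefore entered the median with a ratio of 0.0. Slfn2, a growth regulator of immune cells, fell 3.87-fold, from 3080 to 796 units, and its second probe set went from 1167 to 447.

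**Figure D2:**
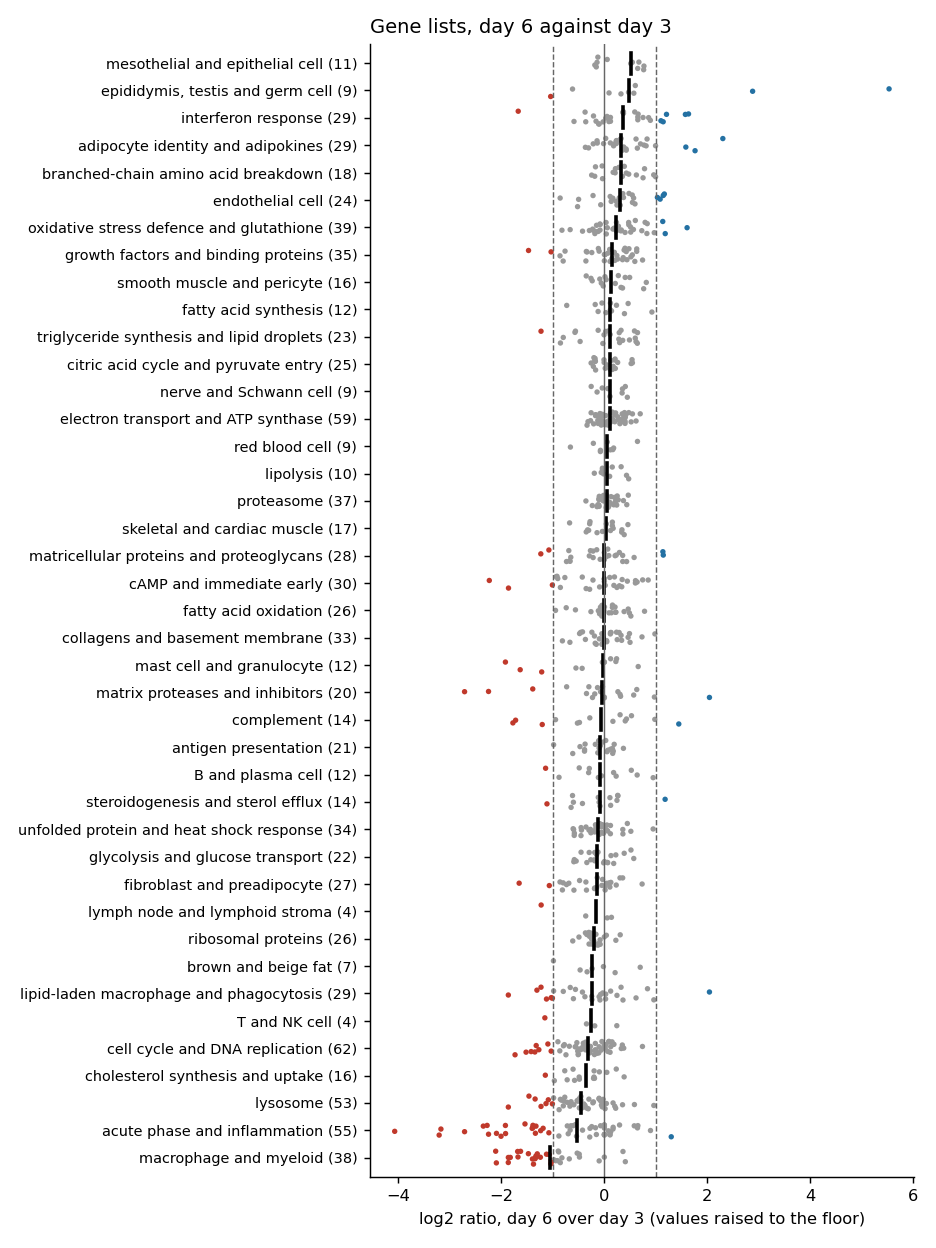
The log2 ratio of day 6 over day 3 (horizontal) for the members of each gene list whose mean over the 4 arrays was above the floor; each point is 1 gene, red at least 2-fold lower and blue at least 2-fold higher, the black bar is the list's median, dashed lines mark 2-fold and the number of genes is in parentheses. A gene on several lists is drawn on each. The macrophage and myeloid list has the lowest median, -1.05, followed by acute phase and inflammation at -0.54 and lysosome at -0.46.

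Most lysosomal genes were lower at day 6, the majority by less than 2-fold. Of 53 above the floor, 45 had ratios below 0, 7 fell past 2-fold and 0 rose. Among the falls, Cd68 and Laptm5 are also counted on the macrophage and myeloid list. At 1.5-fold, 20 were lower and 1 higher, where the background was 8.31% lower and 7.5% higher. Their median log2 ratio was -0.46. Lgmn, an asparaginyl endopeptidase, was at 1888, 7536, 9217 and 3342 units and fell 2.76-fold. Lipa, the acid lipase that frees fatty acids and cholesterol from engulfed lipid, was at 288, 1318, 1782 and 760 units and fell 2.34-fold. Both had their highest value at day 3. Psap, the precursor of the saposins that help digest sphingolipids, fell 2.13-fold, from 19425 to 9139 units; its second probe sets went from 1362 to 1125 and from 757 to 321. Grn, progranulin, fell 2.19-fold with its second probe set going from 105 to 255. Of the 53 lysosomal genes, Acp5, a tartrate-resistant phosphatase named after its values were seen, was the highest, with a log2 ratio of 0.96 from 6084 to 11841 units.

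The genes of lipid-laden macrophages did not all follow the general markers. Of 29 above the floor, 6 fell and 1 rose, with a median of -0.24. The lists overlap: of the genes that fell, Cd68, Msr1 and Lgals3 also stand on the macrophage and myeloid list, and Cd68 and Lipa on the lysosome list. Galectin 3 (Lgals3), a lectin of phagocytes, fell 2.04-fold, from 18654 to 9124 units. The member that rose was Mmp12, the elastase of macrophages, which was at 859, 1228, 1366 and 5620 units and was 4.11-fold higher at day 6 than at day 3. Its second probe set rose too, from 1082 to 3197. Apoc1, an apolipoprotein of phagocytes and liver named after its values were seen, went from 15695 to 28055 units, a log2 ratio of 0.84. The day 6 array was the highest of the 4 for both Mmp12 and Apoc1, while Cd68, Lgmn and Lipa were highest at day 3.

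Among 14 complement genes above the floor, 3 fell and 1 rose. The receptors for the activation fragments of complement fell: C3ar1 from 2461 to 719 units, 3.42-fold, and C5ar1 from 3808 to 1651, 2.31-fold. Properdin (Cfp), which stabilizes the alternative pathway's convertase, fell 3.3-fold, from 4225 to 1280 units. Clusterin (Clu), an inhibitor of the terminal complement complex and a chaperone, was at 6003, 2219, 1987 and 5411 units and rose 2.72-fold. Its second probe set rose from 462 to 1952. Receptors of myeloid cells thus fell while clusterin rose, and the list's median was -0.06.

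Cell cycle genes were lower at day 6. Of 62 above the floor, 8 fell and 0 rose, against a background of 2.86% and 1.61%; 48 had ratios below 0 and the median was -0.31. Among the genes of nucleotide supply, Tk1, thymidine kinase, was at 76, 133, 745 and 224 units and fell 3.33-fold, while its second probe set went from 285 to 348. Rrm1, the large subunit of ribonucleotide reductase, was at 116, 241, 499 and 154 units and fell at least 2.87-fold. Among the genes of replication and mitosis, Fen1, which processes Okazaki fragments, fell at least 2.41-fold, from 420 to 106 units. Uhrf1, which carries DNA methylation through replication, fell at least 2.68-fold, from 466 to 121.

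Stmn1, a regulator of microtubules, was at 559, 459, 2738 and 1075 units and fell 2.55-fold; its second probe set lay under the floor on both days. Cdk1, the kinase of mitotic entry, was at 4, 68, 698 and 279 units and fell 2.5-fold. Day 3 was the highest array for Tk1, Rrm1, Stmn1 and Cdk1. Birc5 (survivin) went from 601 to 330 units, 1.82-fold lower and short of 2-fold. The proliferation antigen Mki67 was split between its probe sets, with the brighter going from 276 to 461 units and the other from 547 to 213. Top2a, a topoisomerase of dividing cells, was below the floor on all 4 arrays.

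Promoters of mitotic genes are known for the cell cycle homology region, with the letters TTTGAA. These letters were read on both strands within 250 bases before the start. They stood in 2 of the 6 promoters matched among the 8 genes that fell and in 16.3% of all 27025. Genes of the list that did not fall were not counted. The promoter of Cdk1 holds TTTGAA in a stretch of 80 bases at chr10:69352913-69352992 on the minus strand. It is shown because this gene is the mitotic kinase of the group. The capitals mark TTTGAA, which begins 71 and 15 bases before the start.
Cdk1: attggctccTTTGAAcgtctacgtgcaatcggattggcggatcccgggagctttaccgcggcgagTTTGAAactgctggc

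Among immediate early genes and cAMP targets, 3 of 30 above the floor fell and 0 rose, with a median of 0.00. Fos, a subunit of the AP-1 transcription factor, was at 450, 2264, 1806 and 384 units and fell 4.7-fold, while its second probe set lay under the floor on both days. Its partner Junb was at 302, 4458, 632 and 110 units and fell at least 3.63-fold, and its second probe set went from 442 to 238. Gadd45a, induced by DNA damage and stress, went from 487 to 242 units, 2.01-fold lower. Jun, another AP-1 subunit named after its values were seen, went from 215 to 360 units, a log2 ratio of 0.74.

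**Figure D3:**
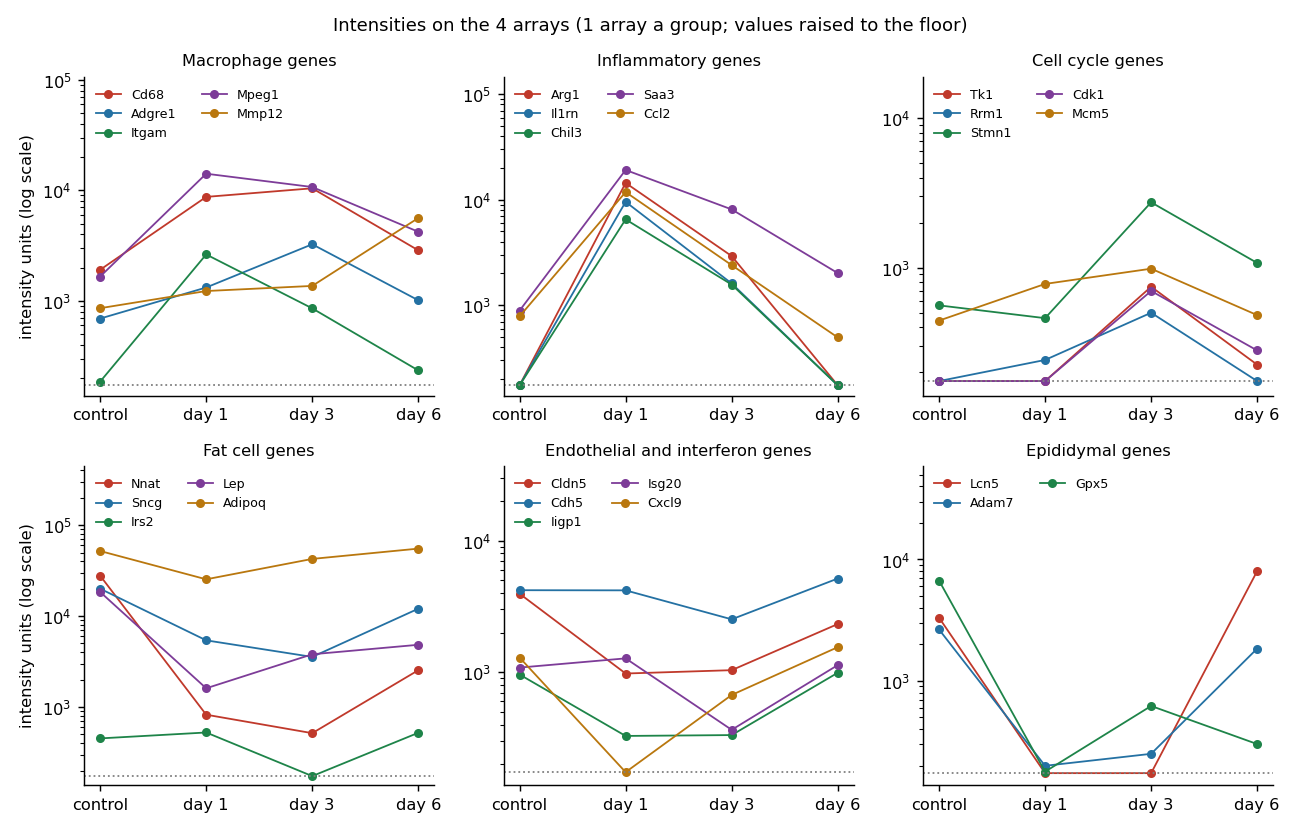
Intensity (vertical, log scale, intensity units, raised to the floor drawn as a dotted line) of selected genes on the 4 arrays, control and days 1, 3 and 6 of CL 316243; each point is 1 array. Macrophage, inflammatory and cell cycle genes other than Mmp12 are lower at day 6 than at day 3, the fat cell, endothelial and interferon genes are higher, and Lcn5 and Adam7 are high in control and at day 6.

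Fat cell genes were higher at day 6 than at day 3, most of them by less than 2-fold. The tissue label held, since adiponectin (Adipoq), secreted by fat cells, was at 42582 units at day 3 and 55270 at day 6. Of the 29 genes of fat cell identity and adipokines above the floor, 3 rose and 0 fell; at 1.5-fold, 10 were higher and 0 lower, against a background of 7.5% and 8.31%. Ratios above 0 were found for 23 of the 29, and the median was 0.32. Neuronatin (Nnat), a small membrane protein of fat and brain, was at 27843, 824, 516 and 2542 units and rose 4.93-fold, which left it below its control value. Gamma-synuclein (Sncg), abundant in fat cells and peripheral nerve, was at 20022, 5416, 3559 and 12065 units and rose 3.39-fold; its second probe set went from 3046 to 8476. Irs2, an adaptor of the insulin receptor, was at 452, 525, 83 and 521 units and rose at least 2.99-fold.

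Leptin (Lep), the satiety hormone of fat, was at 18438, 1608, 3805 and 4839 units. Its log2 ratio between days 3 and 6 was 0.35, while its second probe set went from 614 to 1412, a ratio of 1.2. Pparg, the nuclear receptor of fat cell differentiation, was at 4872, 1304, 3374 and 4521 units, with a ratio of 0.42. Cebpa, its partner transcription factor, had a ratio of -0.14, and the insulin-responsive transporter Slc2a4 one of 0.18. None of these 4 passed 2-fold by its brighter probe set. Retinol-binding protein 4 (Rbp4), an adipokine named after its values were seen, was at 10444 and 20809 units, a ratio of 0.99 just under the threshold.

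Lipid storage and synthesis genes stayed within 2-fold, apart from Lipa. Of 12 fatty acid synthesis genes above the floor 0 rose and 0 fell, and their median was 0.12. Fatty acid synthase (Fasn) was at 23347 and 32153 units on days 3 and 6, and Scd1, the main desaturase of fat, at 63778 and 70216. Acly, which makes cytosolic acetyl-CoA, went from 12343 to 7440, a ratio of -0.73. Of 23 triglyceride and lipid droplet genes, 1 fell and 0 rose. Plin2, a droplet coat protein named after its values were seen, went from 21569 to 12412 units (-0.80), and Plin4 from 18310 to 27468 (0.59). Of 10 lipolysis genes 0 passed 2-fold; hormone-sensitive lipase (Lipe) was at 15702 and 19682 units and G0s2, which inhibits adipose triglyceride lipase, at 10222 and 13778.

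Genes of brown fat and of mitochondrial oxidation stayed within 2-fold between days 3 and 6 by their brighter probe sets. The brown and beige list had 7 members above the floor, of which 0 rose and 0 fell, and the median was -0.24. Ucp1, which uncouples respiration to make heat, was at -14, 3059, 1501 and 1190 units, 1.26-fold lower at day 6 than at day 3, and its second probe set went from 348 to 142. Cox8b, a cytochrome oxidase subunit of muscle and brown fat, was at 1001, 816, 9548 and 15472 units, 1.62-fold higher, and its second probe set rose from 1815 to 3714. Cox7a1, another tissue-specific subunit, was at 966 and 954 units, and Cidea, which enlarges lipid droplets in brown fat, at 1312 and 947. Dio2, which activates thyroid hormone in brown fat, went from 859 to 433 units, 1.98-fold lower.

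None of the 26 fatty acid oxidation genes above the floor, the 59 electron transport and ATP synthase genes or the 25 genes of the citric acid cycle and pyruvate entry passed 2-fold: 0 rose and 0 fell in each. Their medians were 0.00, 0.11 and 0.11. Acadl, the long-chain acyl-CoA dehydrogenase, was at 6727 and 6739 units on days 3 and 6, and Pdk4, a kinase that switches off pyruvate dehydrogenase, at 3020 and 3491. Cpt1a, which commits fatty acids to mitochondria, was at 4415 and 2993 units, a ratio of -0.56. Pcx, pyruvate carboxylase, was at 7636 and 11140 units, a ratio of 0.54. The array's own control probe sets for this gene went from 14576 to 21014 at its 3′ end and from 4508 to 3192 at its 5′ end. Those for its middle went from 5562 to 5447 and from 9678 to 9586.

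Genes that break down branched-chain amino acids were higher by up to 1.99-fold. None of the 18 above the floor passed 2-fold, 13 had ratios above 0, and 5 were at least 1.5-fold higher, 0 lower, where the background was 7.5% and 8.31%. Their median of 0.32 equalled that of the fat cell list. Bckdha, a subunit of the branched-chain keto acid dehydrogenase, was at 3516, 687, 3027 and 6033 units, 1.99-fold higher. Pccb, of propionyl-CoA carboxylase, was 1.94-fold higher, from 2000 to 3887 units, and Ivd, isovaleryl-CoA dehydrogenase, 1.72-fold, from 3629 to 6233.

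Detoxifying enzymes and steroid-converting enzymes rose in part. Of 39 genes of oxidative stress defence and glutathione, 3 rose and 0 fell, with a median of 0.24. The 3 were glutathione S-transferases, which couple glutathione to reactive compounds. Gsta4 was at 386, -1, 201 and 612 units and rose 3.04-fold, Gstt1 went from 1717 to 3896, 2.27-fold, and Gstm3 from 1427 to 3132, 2.19-fold. The other probe set of Gstm3 was at 1033 and 1035 units. Hmox1, which degrades heme, was at 2512, 16644, 8953 and 5061 units, 1.77-fold lower at day 6. Hsd11b1, which regenerates active glucocorticoid in fat, was at 6172, 1440, 1348 and 3054 units and rose 2.27-fold, while Hsd17b12, an enzyme of fatty acid elongation, fell 2.16-fold from 14672 to 6779. Cyp2f2, a cytochrome P450, rose 3.26-fold from 1394 to 4548 units, and Inmt, a methyltransferase of indoleamines, 3.3-fold from 1312 to 4336.

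Interferon-induced genes were higher at day 6. Of 29 above the floor, 5 rose and 1 fell, against a background of 1.61% and 2.86%, and 20 had ratios above 0. The median was 0.36, or 0.04 when the floor was set to the 60th percentile. Isg20, an exonuclease that degrades viral RNA, was at 1085, 1275, 365 and 1133 units and rose 3.1-fold. Iigp1, a GTPase that attacks the vacuoles of intracellular parasites, was at 961, 328, 333 and 991 units and rose 2.98-fold, and its second probe set rose from 199 to 715. Igtp, of the same GTPase family, rose 2.21-fold from 275 to 607 units, and the T cell attractant Cxcl9 2.31-fold from 672 to 1551. Irf7, the regulator of type I interferon genes, rose 2.14-fold by its brighter probe set while the other went from 331 to 194. The member that fell was Ifi30, a thiol reductase of antigen-presenting cells, which went from 3856 to 1210 units, 3.19-fold.

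Endothelial markers were higher at day 6 as well. Of 24 above the floor 4 rose and 0 fell, with 19 ratios above 0, 5 below 0 and a median of 0.30. At 1.5-fold, 5 were higher and 1 lower, where the background was 7.5% and 8.31%. Among the lower ones, named after their values were seen, Lmo2 went from 1559 to 860 units and Cd93 from 3562 to 2484. Cldn5, a tight junction protein of vessels, was at 3953, 978, 1037 and 2325 units and rose 2.24-fold. The endothelial cadherin Cdh5 was at 4204, 4193, 2525 and 5156 units and rose 2.04-fold. Icam2, an adhesion molecule, rose 2.21-fold from 320 to 707 units, and the transcription factor Sox17 2.12-fold from 419 to 888, with its second probe set going from 155 to 576. The list's summed intensity was 47073 units in control, 45558 at day 1, 34051 at day 3 and 41494 at day 6.

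Structural matrix genes did not pass 2-fold. Of 33 collagen and basement membrane genes above the floor 0 rose and 0 fell, and the median was -0.02. The fibrillar collagens Col1a1 and Col3a1 were at 8897 and 13868 units at day 3 and at 6374 and 12141 at day 6. The 3 probe sets of Col3a1 disagreed, as a dimmer one went from 2319 to 1127 and the third from 2571 to 2829. Col1a2 went from 4118 to 2342 by its brighter probe set and from 2002 to 2247 by the other. Among 28 matricellular genes 2 rose and 2 fell: fibromodulin (Fmod), which binds collagen fibrils, 2.21-fold and the heparan sulfate proteoglycan Sdc2 2.2-fold upward, and Tgfbi, an adhesive matrix protein, 2.35-fold and the hyaluronan receptor Cd44 at least 2.11-fold downward. Tgfb1, the cytokine that drives matrix synthesis, fell 2.77-fold, from 1803 to 650 units. S100a4, a calcium-binding protein of fibroblasts and leukocytes, fell 3.15-fold from 4466 to 1419, and Fstl1, a secreted glycoprotein of stromal cells, 2.1-fold from 2150 to 1025, the 2 of 27 fibroblast and preadipocyte markers that fell.

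Of the other lists, cholesterol synthesis and uptake had a median of -0.35, with 13 of 16 ratios below 0 and 1 fall, that of Mvd, an enzyme of the mevalonate pathway, from 385 to 113 units. Ribosomal protein genes had a median of -0.20, with 22 of 26 below 0 and 0 past 2-fold. Glycolysis and glucose transport (22 genes, median -0.14), the unfolded protein and heat shock response (34, median -0.13), antigen presentation (21, median -0.08) and the proteasome (37, median 0.04) had 0 genes past 2-fold. The list of matrix proteases and inhibitors had 3 falls and 1 rise in 20, growth factors and binding proteins 2 falls (Tgfb1 and Csf1r) and 0 rises in 35, steroidogenesis and sterol efflux 1 rise and 1 fall in 14, and nerve and Schwann cell markers 0 past 2-fold in 9. On the last list Npy, neuropeptide Y, whose mean over the 4 arrays was below the floor, went from 30 to 375 units, at least 2.16-fold higher. Among the smaller cell type lists, B and plasma cell markers had 1 fall in 12, Ly86, with 5 ratios above 0 and 7 below. Of the antibody genes on that list, Jchain went from 337 to 650 units, 1.93-fold higher. Ighm, named after its values were seen, went from 8787 to 13666. The list's summed intensity was 15951 units at day 3 and 19411 at day 6. T and NK cell markers had 1 fall in 4, Il7r, the receptor for interleukin 7. The lymphoid list had 1 in 4, Cd37, a tetraspanin of B cells and myeloid cells. Smooth muscle, skeletal and cardiac muscle, red blood cell, and mesothelial and epithelial markers had 0 past 2-fold in either direction. Their medians were 0.12, 0.04, 0.06 and 0.51. The mesothelial and epithelial median rested on 11 genes and was 0.06 at a floor of the 60th percentile.

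Transcripts of the epididymis, the organ against which this fat pad lies, differed between the arrays. Lcn5, a retinoid-binding lipocalin of the epididymis, was at 3319 units in control, 63 at day 1, 7 at day 3 and 8028 at day 6. Adam7, a membrane protein of the epididymis, was at 2653, 200, 251 and 1846 units and rose 7.35-fold from day 3 to day 6. Both were high in control and at day 6 and low on days 1 and 3. Gpx5, the glutathione peroxidase of the epididymis, was at 6708, 179, 622 and 302 units and so was high in control alone. It fell 2.06-fold from day 3 to day 6, and its second probe set went from 274 to 52. Of the 27 measured members of the epididymis, testis and germ cell list, 15 were below the floor on all 4 arrays, among them the germ cell genes Ldhc, Pgk2, Acrv1 and Akap4, named after their values were seen. With 9 members above the floor, 2 rose and 1 fell, and the median was 0.47, or 0 over all 27 measured. The list's summed intensity was 16014 units in control, 11491 at day 1, 4297 at day 3 and 14690 at day 6. Of the day 6 sum, 8028 units were those of Lcn5. Of the day 1 sum, 7998 were those of Star, a gene of steroid synthesis that the list also holds.

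A search made after these values were seen found 6 of 5762 genes (0.104%) that were at least 2 times the floor in control and at day 6 and at or below it on days 1 and 3. Besides Lcn5 they were C4bp, an inhibitor of complement, at 634, -49, -4 and 866 units, Cuzd1 at 349, 94, 152 and 815, Gm8096 at 1898, -26, 111 and 658, Nmb, the peptide neuromedin B, at 361, 99, 122 and 384, and Sprr2k at 380, 169, 128 and 364. C4bp, Cuzd1 and Gm8096 were among the 15 largest rises, at least 4.98-fold, 4.68-fold and 3.78-fold. The part of epididymal RNA in these and in the other rises was not tested.

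The response at day 1 against control shares no array with the comparison of day 6 with day 3, so the 2 sets of ratios could be set side by side. They do share the floor and the choice of genes by mean, both of which used all arrays. Early risers such as Il1b and Il6 passed the mean through day 1 alone and were below the floor on days 3 and 6. How far the shares and correlations below depend on this shared choice was not tested. Of the 5762 genes, 455 (7.9%) were at least 2-fold higher at day 1 than in control and 520 (9.02%) at least 2-fold lower. Of the 455 early risers, 89 (19.6%) fell between days 3 and 6 and 1 (0.22%) rose, where the background was 2.86% and 1.61%. Of the 520 genes lower at day 1, 37 (7.12%) rose and 1 (0.192%) fell. Read from the other side, the early risers made up 53.9% of the 165 late falls and 7.9% of all genes, and the genes lower at day 1 made up 39.8% of the 93 late rises. The genes within 2-fold at day 1 were 83.1% of all genes and supplied the rest, 45.5% of the falls and 59.1% of the rises. Of this class, 1.57% fell and 1.15% rose. Across genes, which are not independent replicates, the 2 log2 ratios had a Pearson correlation of -0.46 and a Spearman correlation of -0.40.

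The 2 exceptions were Car4, a membrane carbonic anhydrase, which was at 623, 2049, 561 and 1236 units and rose 2.2-fold late, and Gpx5. Car4 was named after its values were seen. The early part of the response is set out for single genes by Arg1, Il1rn and S100a9, high at day 1 and lower at day 6 than at day 3, and by Nnat, Inmt and Gsta4, low at day 1 and higher at day 6 than at day 3. Mmp12 and Cyb561, an electron carrier of membranes, were within 2-fold of control at day 1 and rose late, Cyb561 from 428 to 1647 units, 3.85-fold, with its second probe set going from 459 to 996. Aif1 and Ptgr1, a reductase of prostaglandins and leukotrienes, were likewise within 2-fold at day 1 and fell late, Ptgr1 from 1551 to 401 units, 3.87-fold.

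**Figure D4:**
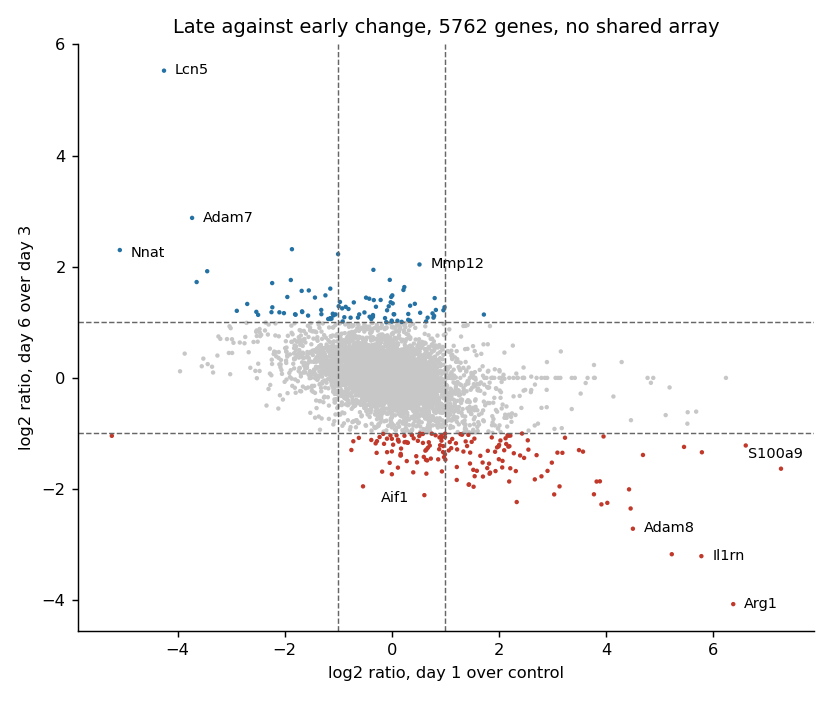
The log2 ratio of day 6 over day 3 (vertical) against that of day 1 over control (horizontal) for 5762 genes; each point is 1 gene, red at least 2-fold lower and blue at least 2-fold higher at day 6 than at day 3, and dashed lines mark 2-fold. Of 455 genes right of the right dashed line, 89 are red and 1 is blue, and of 520 genes left of the left dashed line, 37 are blue and 1 is red.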

How the data were processed

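The authors deposited whole-number intensities on a linear scale, 1 for each probe set and array. The medians of the 4 arrays were 315 or 316 units before any step taken here. Between 12.1% and 12.4% of values per array were at or below 0. The software, the background step and the normalization are not stated in the labels or the file. The file holds 12488 probe sets, of which 66 controls of the array maker were left out of the counts. No scaling was applied. Ratios were taken on the log2 scale after the floor, in Python 3.11.15, and the steps were tested on simulated data. The array's annotation table gave 1 symbol for 10833 probe sets, several for 396 (not named) and none for 1193. Entrez identifiers of 10817 matched the GRCm38.p6 RefSeq table, and 0 symbols changed. The 8251 genes were each represented by the probe set with the highest mean over the 4 arrays.

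The 28 pathway and 13 cell type lists, the comparison and the thresholds were chosen with earlier results of these data known. Named genes are the 15 largest rises and 15 largest falls with a brighter value of at least 348 units, up to 6 members of each list past 2-fold (with fewer than 2, up to 2 with the largest change) and 39 fixed genes, 148 in all. Of the 86 of them past 2-fold, 29 had other probe sets: for 9 another passed 2-fold the same way, for 5 (Csf1r, Grn, Irf7, Lcn2 and Tk1) one went the opposite way, and for 11 one did not exceed the floor on either array. The floor, scaling, probe set choice, list membership and threshold were varied.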

Additional observations from a re-analysis of the deposited data

How the results depend on the processing

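Counts of probe sets and genes past 2-fold moved with the floor and with the threshold. By definition, a higher floor can only shrink a ratio, and a higher threshold can only lower a count. With the floor at the 25th percentile, 454 probe sets and 276 genes were higher and 531 and 343 lower at day 6. At the 60th percentile, 42 and 30 were higher and 103 and 81 lower. With no floor and an offset, 83 and 44 were higher. At 1.5-fold, 608 and 432 were higher and 665 and 479 lower, and at 3-fold 28 and 14 higher and 55 and 43 lower. The other 16 recomputed counts stayed within 1.5 times, and lower calls outnumbered higher ones under each alternative. Of 367 recomputed list medians, 362 moved by less than the error of 0.30. The exceptions were acute phase and inflammation at -0.16, mesothelial and epithelial at 0 and epididymis, testis and germ cell at 0 over all measured members, and interferon at 0.04 and mesothelial and epithelial at 0.06 at the 60th percentile floor. Of 86 named genes past 2-fold, 0 changed direction and 39 stayed past 2-fold under every alternative that gave them a value (6 for all 86, and unique probe sets alone for 76); 33 fell short at the 60th percentile floor and 18 with the mean of a gene's probe sets. No paired analysis was possible because each group has 1 array. One array a group limits every comparison.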
